A study of Bos taurus with 6 samples.

Results

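The mir-154 family is a group of related microRNAs (miRNAs) of the imprinted DLK1-DIO3 domain. Its members here were the rows of known miRNAs that the deposited table describes as mir-154, a rule that reads the description column and no measured value. There were 20 such rows among 879 rows of known and predicted miRNAs. The table marks 8 of the 20 as hairpin and 12 as mature. The rows were compared between 3 libraries of adipocytes and 3 libraries of preadipocytes, all from cultured Holstein cattle cells at passage 4 to 6. The adipocytes were preadipocytes induced with insulin, dexamethasone, rosiglitazone and IBMX. The labels give adipose tissue as the source of both groups. The culture medium was F12/DMEM, to which fetal bovine serum (FBS) and antibiotics had been added. The sources used here do not give the fat depot, the length of the induction or the number of animals. Since the labels do not tie the replicates to different animals or dishes, each p-value reflects only how these 6 libraries vary, and that variation may be technical.

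A miRNA is a short RNA cut from a hairpin precursor that guides the silencing of messenger RNAs with matching sites. The DLK1-DIO3 domain carries one of the densest groups of miRNA genes in placental mammals. These are read from the maternal chromosome together with the long noncoding RNAs MEG3 and MEG8. The paternal chromosome expresses DLK1, which encodes preadipocyte factor 1, a protein that restrains the formation of fat cells, and DIO3, an enzyme that inactivates thyroid hormone. The mir-154 family gathers hairpins of the domain with similar sequences. Its members carry many different names, among them miR-154, miR-323, miR-381, miR-409, miR-410 and miR-487.

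All 20 rows matched a gene of the RefSeq table of assembly ARS-UCD2.0 by name, at 18 distinct positions. All 18 lie after the end of MEG8 and before the start of MEG9, among 42 positions of miRNA genes from the first to the last of them. The family is thus interleaved with other miRNA genes and is not a block of its own. The genes of miR-409a and miR-409b have the same start in that table, and the reads of both rows are uncertain because the counting could divide them in ways not recorded. The 2 arms of miR-369 also share 1 gene. The build of the deposited table was not stated, so the assembly was used for names and neighbours only.

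The libraries held 15035059 to 19123498 miRNA reads in adipocytes and 14525284 to 22283754 in preadipocytes. Levels are counts-per-million (CPM) of miRNA reads, after scaling with edgeR's TMM factors, and differences are log2 of adipocytes over preadipocytes. No CPM value is divided by length. Where a library had 0 reads of a known miRNA, its level could still be as high as 0.142 to 0.153 CPM for adipocytes and 0.183 to 0.244 CPM for preadipocytes (3 counts per library, counting error only). The most abundant miRNA, miR-21-5p, made up 68.2% ± 5.23 of all miRNA reads of adipocytes and 79.0% ± 1.13 of those of preadipocytes (SD, n = 3 each). Reads of exons, introns, repeats and intergenic sequence made up 8.21% to 12.0% of the table in adipocytes. They made up 18.5% and 18.9% in preadipocyte replicates 1 and 2, against 5.29% in replicate 3. Of the miRNAs tied to adipocyte differentiation, miR-148a and miR-33b rose (log2 differences 1.68 and 5.67). The level of miR-33b was uneven, with 63.8, 84.4 and 3.19 RPM (reads-per-million of miRNA reads, unscaled) in adipocyte replicates 1, 2 and 3. In preadipocyte replicates 1, 2 and 3 it was 0.745, 0.344 and 0.628 RPM. The estimates of miR-378 (0.93), miR-103 (0.88) and miR-143 (-0.32) did not pass the test. Of the marker rows of other cells, those of blood (5 rows) summed to 0.728 to 1.53 RPM in adipocytes and 1.39 to 4.13 in preadipocytes. Those of epithelium (5 rows) summed to 0.471 to 0.993 RPM in adipocytes and 0.459 to 0.895 RPM in preadipocytes. Those of skeletal muscle (4 rows) summed to 21.1 to 34.6 in adipocytes and 17.8 to 38.8 in preadipocytes, mostly from miR-1, although miR-133a among them fell, with 1.63 ± 0.344 CPM in adipocytes and 5.99 ± 1.46 CPM in preadipocytes (log2 difference -1.88, SE 0.34, edgeR BH-adjusted p = 0.0293). Those of neurons (3 rows) summed to 4.29 to 7.58 in adipocytes and 5.03 to 7.40 in preadipocytes. The neuron rows were miR-137, miR-9-3p and miR-9-5p, with nearly all reads from miR-9. The neuronal miR-124, also planned as a marker, was not among them. The endothelial miR-126 rows (2 rows) summed to 44.9 to 91.1 in adipocytes and 95.4 to 334 in preadipocytes, with the highest value in preadipocyte replicate 3. None of these marker rows was at 0 in every library. The part of these cells in the results below was not tested. In such bulk samples, more cells of a type and more RNA per cell cannot be told apart.

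The family as a whole took a small part of the small RNA and a larger one in adipocytes. Its 20 rows together held 5472, 4416 and 5159 reads in adipocyte replicates 1, 2 and 3. They held 1553, 1198 and 2143 reads in preadipocyte replicates 1, 2 and 3. The sum was 309 ± 49.2 RPM in adipocytes and 89.2 ± 6.85 RPM in preadipocytes (SD, n = 3 each), a log2 ratio of the means of 1.79. The lowest adipocyte library (270) lay above the highest preadipocyte library (96.2). In the same unscaled units, 185 of all 879 miRNA rows lay apart with adipocytes higher. The median log2 difference over all tested miRNAs was 0.62 with library totals alone. Since miR-21-5p fills most of each library, the sum was also set against the other miRNA reads alone. It was then 975 ± 89.1 RPM of those reads in adipocytes and 426 ± 51.5 RPM in preadipocytes, a log2 ratio of 1.19. Again the groups did not overlap.

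**Figure D1:**
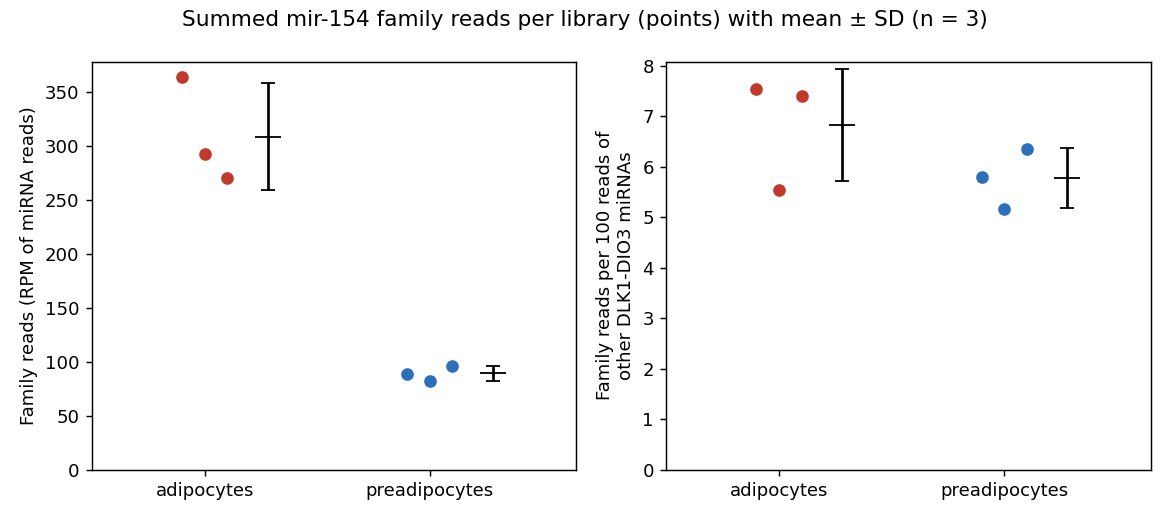
Summed reads of the 20 mir-154 family rows in each library, in RPM of miRNA reads (left) and per 100 reads of the other listed DLK1-DIO3 miRNAs (right), with adipocytes left of preadipocytes; points are libraries, bars the mean ± SD (n = 3). The left panel separates the groups (270 to 364 in adipocytes, 82.5 to 96.2 in preadipocytes), while in the right panel they overlap. Most reads of the other listed miRNAs in the right panel were those of miR-127 and miR-411a.

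Set against the summed reads of its own neighbourhood, the family's summed reads did not separate the groups. For every 100 reads of 36 other miRNA rows listed for the domain, the family held 7.54, 5.54 and 7.40 reads in adipocyte replicates 1, 2 and 3. It held 5.80, 5.16 and 6.35 in preadipocyte replicates 1, 2 and 3. The means were 6.83 ± 1.11 in adipocytes and 5.77 ± 0.595 in preadipocytes, and adipocyte replicate 2 lay within the preadipocyte range. The list includes miR-345-3p and miR-345-5p, whose gene lies before DLK1 in the RefSeq table, and these held 6.13% to 7.34% of the list's reads in adipocytes and 6.46% to 12.5% in preadipocytes. Per 100 reads of the 34 rows between DLK1 and DIO3, the family held 7.34 ± 1.25 reads in adipocytes and 6.38 ± 0.764 in preadipocytes, and adipocyte replicate 2 again lay within the preadipocyte range. All 36 listed rows summed to 4582 ± 841 RPM in adipocytes and 1549 ± 43.7 RPM in preadipocytes. These ratios within a library do not depend on the scaling factors, and a sum over members was given no test. In every library most of the listed reads were those of miR-127 and miR-411a. These held 30333 and 24583 of 72591 reads in adipocyte replicate 1, and 10741 and 10148 of 26753 in preadipocyte replicate 1. The ratios thus mainly weigh the most abundant rows and do not show how single members compare with single neighbours.

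Member levels ranged widely. The most abundant was miR-409b, which took 26.3% ± 2.23 of the family's reads in adipocytes and 37.6% ± 3.11 in preadipocytes. Next in adipocytes came miR-410, miR-381, miR-154b and miR-487b, and with miR-409b these 5 rows held 74.4% ± 2.06 of the family's reads in adipocytes and 78.3% ± 5.72 in preadipocytes. The order differed in preadipocytes, where miR-154b had a higher mean than miR-410 (14.5 and 10.9 CPM) with libraries that overlapped. There, miR-487b had 9.77, 9.94 and 13.2 CPM, which overlapped miR-410 with 10.5, 7.82 and 14.3 CPM in preadipocyte replicates 1, 2 and 3. The share of miR-410 in the family was 17.5% ± 1.52 in adipocytes and 9.62% ± 1.48 in preadipocytes, with no overlap between the libraries. At the low end, miR-369-5p had 1 read in adipocyte replicate 1 and 0 in the other 5 libraries, while the other arm of that hairpin, miR-369-3p, had 212 to 248 reads in adipocytes and 27 to 133 in preadipocytes. With the 5p arm at the floor, arm usage could not be tested for miR-369, the member hairpin with separate rows for both arms. The deposited table also marks these rows differently, miR-369-3p as hairpin and miR-369-5p as mature.

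**Figure D2:**
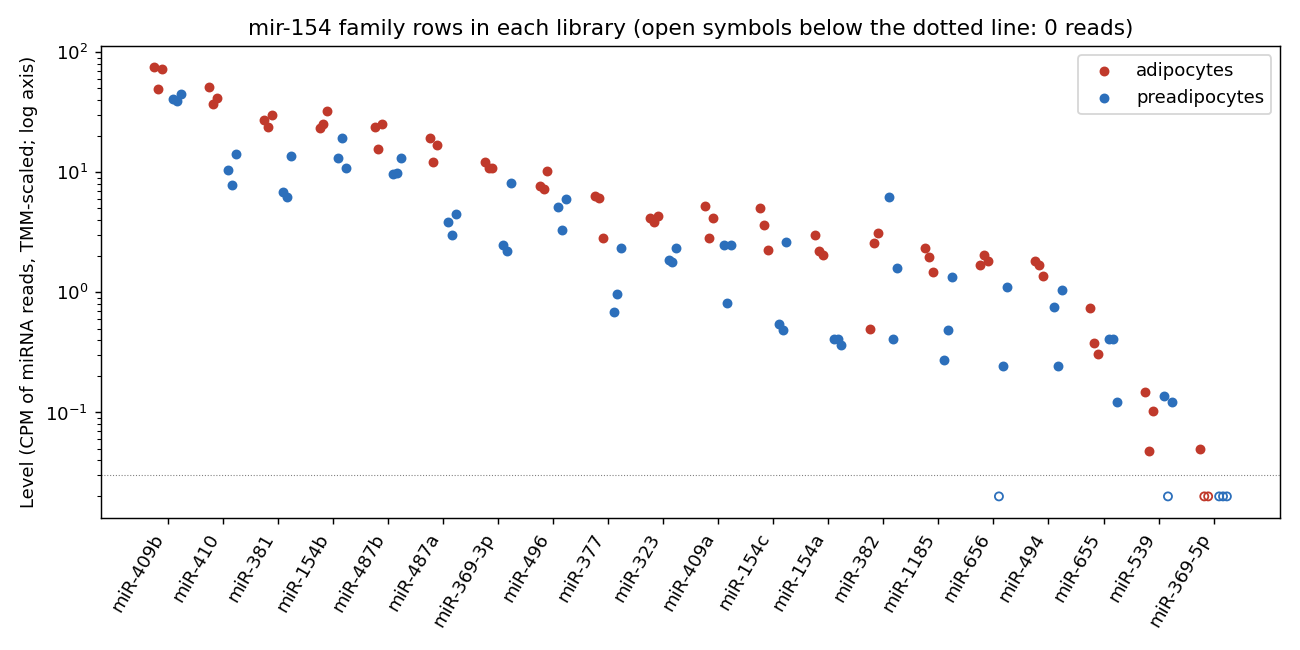
Level of each of the 20 mir-154 family rows in every library (TMM-scaled CPM, log axis), ordered by the adipocyte mean, with adipocytes left of preadipocytes in each column and replicates 1 to 3 from left to right. Open symbols under the dotted line mark 0 reads; for miR-410 and miR-487a the groups stand well apart, while for miR-382 they overlap.

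Of the 20 rows, 17 passed edgeR's filter on low counts and entered the test across 414 miRNAs. At a Benjamini-Hochberg (BH) adjusted p of 0.05 in edgeR's quasi-likelihood test, miR-154a, miR-410 and miR-487a rose in adipocytes, and no member fell, where 2.42% of all tested miRNAs were called lower. That is 3 of 17 tested members or 17.6%, where 3.86% of all tested miRNAs were called higher. The other 14 did not pass. One of the 3 called, miR-154a, had passed the filter through the adipocyte libraries alone, and for 7 of the 17 fewer than 3 preadipocyte libraries reached the filter's level. With no filter the same 3 were called among all 20 rows, where 1.25% of 879 miRNAs were called higher. The median log2 difference of the 20 rows was then 1.43, beside -0.23 over all 879. In the filtered test 16 of 17 estimates were positive, beside 50% of all miRNAs, and the medians were 1.40 for the members and -0.02 for all miRNAs. Among the 10 members that reached the filter's level in all 6 libraries, 2 were called and the median was 1.06. For the 20 such rows of the other miRNAs listed for the domain, 3 were called and the median was 1.00. Of all 296 miRNAs at that level, 19 were called in either direction, with a median of -0.09. Without adjustment, 10 of the 17 members had p below 0.05, beside 141 of all 414 tested miRNAs (34.1%). By level, the groups did not overlap for 15 of the 20 rows, each higher in adipocytes, where 13% of all miRNA rows lay apart in this direction.

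**Figure D3:**
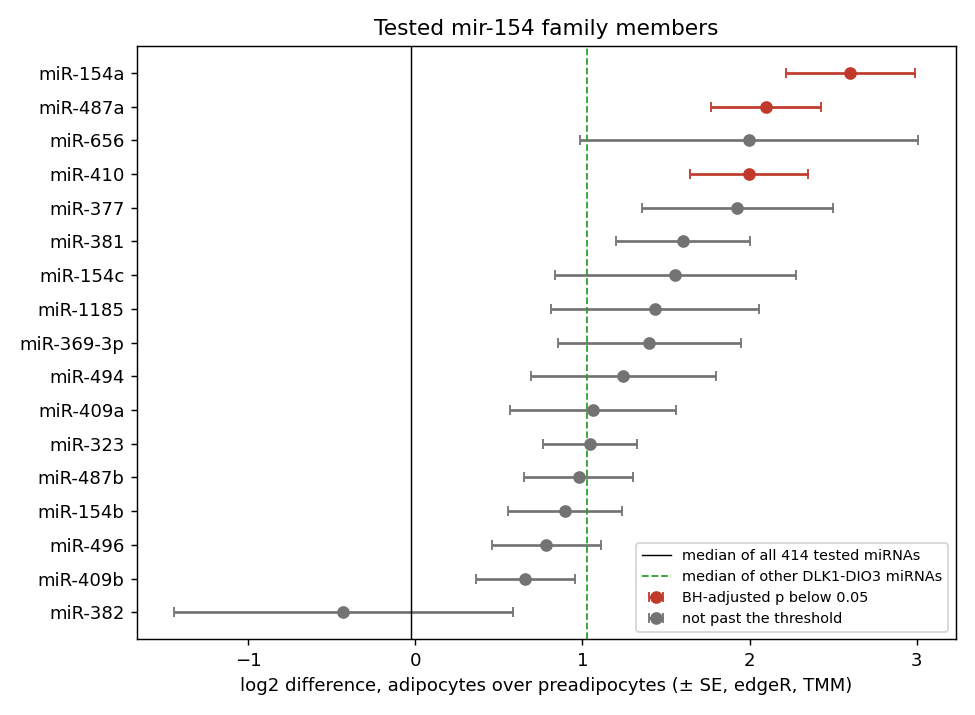
The log2 difference of adipocytes over preadipocytes (± SE, edgeR with TMM factors) for the 17 tested members, with the medians of all 414 tested miRNAs and of the other DLK1-DIO3 miRNAs as lines. The 3 members past the threshold lie between 1.99 and 2.60, and miR-382 has the one negative estimate.

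The clearest difference of an abundant member was that of miR-410, which in mouse beta-cell lines has been studied for its effect on insulin secretion. It had 1034, 782 and 819 reads in adipocyte replicates 1, 2 and 3, against 154, 96 and 234 reads in preadipocyte replicates 1, 2 and 3. Every adipocyte library was above every preadipocyte library. The mean adipocyte level of 43.4 ± 7.24 CPM lay above the mean preadipocyte level of 10.9 ± 3.25 CPM (SD, n = 3 each) by a log2 difference of 1.99, with an SE of 0.35 (edgeR BH-adjusted p = 0.0293).

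For miR-487a, levels were 19.4, 12.1 and 16.9 CPM in adipocyte replicates 1, 2 and 3, against 3.83, 3.01 and 4.46 CPM in preadipocyte replicates 1, 2 and 3. The groups stood apart, and the log2 difference was 2.10 (SE 0.33, edgeR BH-adjusted p = 0.0242). Its sister miR-487b, which in rats targets the insulin signalling gene Irs1 in the aorta, had 23.8, 15.8 and 25.2 CPM in adipocytes, against 9.77, 9.94 and 13.2 CPM in preadipocytes. The libraries of miR-487b did not overlap either, but the log2 difference of 0.98 (SE 0.33) missed the threshold (edgeR BH-adjusted p = 0.0955).

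The largest estimate belonged to a rare member, miR-154a. The human miR-154 has been described as raised in fibrotic lung. The bovine miR-154a row had 61, 47 and 40 reads in adipocyte replicates 1, 2 and 3, against 6, 5 and 6 reads in preadipocyte replicates 1, 2 and 3. The log2 difference was 2.60 (SE 0.39, edgeR BH-adjusted p = 0.0242). The more abundant miR-154b had levels of 23.5, 25.3 and 32.2 CPM in adipocytes, against 13.1, 19.5 and 10.9 CPM in preadipocytes, and differed by 0.90 (SE 0.34, edgeR BH-adjusted p = 0.117).

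Sister rows with the same number and another letter were also compared by their ratio, a measure that needs no scaling. For every 100 reads of miR-487b, miR-487a had 81.5, 76.9 and 67.1 reads in adipocyte replicates 1, 2 and 3, against 39.2, 30.3 and 33.8 in preadipocyte replicates 1, 2 and 3. For every 100 reads of miR-154b, miR-154a had 12.8, 8.80 and 6.36 reads in adipocytes, against 3.13, 2.09 and 3.35 in preadipocytes. In both pairs the groups did not overlap. They did overlap for miR-154c, with 21.5, 14.4 and 7.00 reads per 100 of miR-154b in adipocytes and 4.17, 2.51 and 24.0 in preadipocytes. They also overlapped for miR-409a, with 6.96, 5.74 and 5.70 reads per 100 of miR-409b in adipocytes and 6.05, 2.08 and 5.60 in preadipocytes. These 4 ratios were looked at after the values were seen and carry no test. With the reads of lettered sisters summed, the miR-487 sum differed by 1.42 (edgeR BH-adjusted p = 0.0625) and the miR-154 sum by 1.10 (edgeR BH-adjusted p = 0.0695), so that neither passed. How the counting dealt with reads that could come from either sister is not known from the sources used here. The deposited table marks miR-487a as hairpin and miR-487b as mature, so their ratio sets unlike rows side by side. It marks the miR-154 rows all as mature and both miR-409 rows as hairpin. What these marks mean for the counts is not stated in the sources used here.

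Most abundant of all, miR-409b had the smallest positive estimate. In human fibrosarcoma cells miR-409-3p targets angiogenin, a factor of vessel growth. As levels, miR-409b had 74.8, 49.5 and 72.6 CPM in adipocyte replicates 1, 2 and 3, against 40.7, 39.3 and 44.7 CPM in preadipocyte replicates 1, 2 and 3. The libraries did not overlap, and the log2 difference was 0.66 (SE 0.30, edgeR BH-adjusted p = 0.168). The row of miR-409a at the same gene position averaged 4.06 ± 1.18 CPM in adipocytes, against 1.93 ± 0.964 CPM in preadipocytes.

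The remaining member among the 5 most abundant was miR-381, at 27.4, 24.0 and 30.1 CPM in adipocyte replicates 1, 2 and 3. In preadipocyte replicates 1, 2 and 3 it was at 6.84, 6.27 and 13.7 CPM. Every adipocyte library was higher, by a log2 difference of 1.60 (SE 0.40), which missed the threshold (edgeR BH-adjusted p = 0.0637). Of the alternatives tried, 7 of 17 put it past the threshold, with adjusted p from 0.00167 to 0.206.

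The one negative estimate was that of miR-382, studied in human kidney epithelial cells for the change to a mesenchymal state. It had 10, 54 and 61 reads in adipocyte replicates 1, 2 and 3, against 92, 5 and 26 reads in preadipocyte replicates 1, 2 and 3. Both groups thus held a low and a high library, and no difference could be told from this spread (log2 difference -0.43, SE 1.01, edgeR BH-adjusted p = 0.767). The sign turned positive with library totals alone (0.13), with limma on the deposited TPM (0.18) and with the replicate number as a block (0.18). It also did so without adipocyte replicate 1 (0.06) or preadipocyte replicate 1 (1.01). In gene order miR-382 lay between miR-487a, which rose, and miR-154a, which rose, with other miRNA genes between them.

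The other 9 tested members had positive estimates of 0.78 to 2.00, none past the threshold. Among them, miR-323, a regulator of Wnt and cadherin signalling in human synovial fibroblasts, was the steadiest. It had 84, 81 and 85 reads in adipocyte replicates 1, 2 and 3, against 27, 22 and 38 in preadipocyte replicates 1, 2 and 3 (log2 difference 1.05, SE 0.28, edgeR BH-adjusted p = 0.0637). The estimate for miR-496 was 0.78 (8.35 ± 1.64 CPM in adipocytes, against 4.84 ± 1.38 CPM in preadipocytes). That for miR-494 was 1.25 (1.64 ± 0.233 CPM in adipocytes, against 0.678 ± 0.402 CPM in preadipocytes). The 3 rows that did not enter the test were miR-369-5p, miR-539 and miR-655. The row of miR-539, which in mouse heart cells targets prohibitin 2, had 1 to 3 reads in adipocytes and 0 to 2 in preadipocytes. The row of miR-655, which in human cancer cells targets the mesenchymal regulator ZEB1, had 15, 8 and 6 reads in adipocytes and 6, 5 and 2 in preadipocytes. No difference was detectable for these rows at this depth.

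Preadipocyte replicate 3 stood apart from the other preadipocyte libraries for a subset of members. On a log2 CPM scale with 2 counts added, 14 of 17 tested members lay higher there than in the mean of preadipocyte replicates 1 and 2, with a median of 0.65. The same median was 0.52 over the 27 other tested miRNAs listed for the domain and 0.13 over all 414. The members that moved most, named after their values were seen, were miR-656, miR-154c, miR-369-3p, miR-1185 and miR-377. For miR-369-3p, which in human cells binds the AU-rich element of the TNF messenger RNA, the reads were 248, 228 and 212 in adipocyte replicates 1, 2 and 3, against 36, 27 and 133 in preadipocyte replicates 1, 2 and 3. The row of miR-377, which raises fibronectin output in kidney mesangial cells of human and mouse, had 128, 130 and 55 reads in adipocytes, against 10, 12 and 38 in preadipocytes. For miR-656 the reads were 34, 43 and 36 in adipocytes, against 0, 3 and 18 in preadipocytes. In each of the 3, the adipocyte levels stayed above that of preadipocyte replicate 3. This did not hold for miR-154c, with 2.25 CPM in adipocyte replicate 3 against 2.63 CPM in preadipocyte replicate 3. By contrast, miR-154b was lowest in that library, and miR-154a had nearly the same level in all 3 preadipocyte libraries (0.410, 0.407 and 0.367 CPM).

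**Figure D4:**
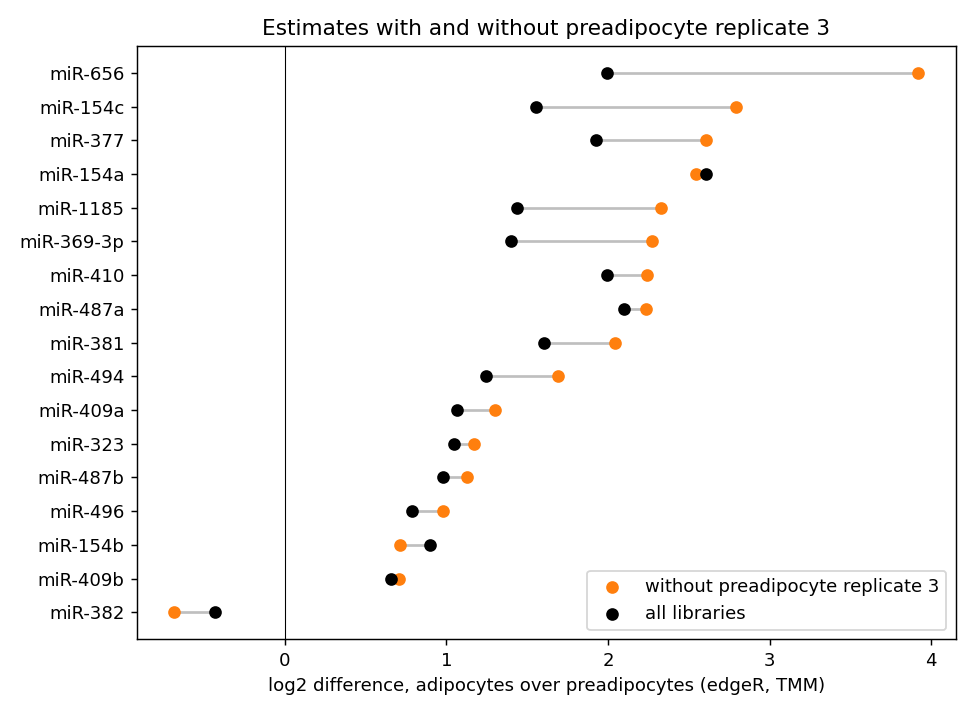
The log2 difference of adipocytes over preadipocytes for the 17 tested members with all libraries (black) and without preadipocyte replicate 3 (orange). The estimates of miR-656, miR-154c and miR-1185 move furthest, to 3.92, 2.79 and 2.33 without that library, while those of miR-154a, miR-409b and miR-487a move little.

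The calls rest on this set of libraries. Without preadipocyte replicate 3, edgeR called 11 of 17 members higher, where 13.8% of all tested miRNAs were called higher, and the members' median was 2.04. Without any other single library it called 0 of 17, while 5 to 7 members had an unadjusted p below 0.05, beside 19.4% to 26.3% of all miRNAs tested in those fits. In those 5 fits the estimates of miR-410 stayed between 1.78 and 2.10, with edgeR BH-adjusted p of 0.0731 to 0.14. Those of miR-487a stayed between 1.86 and 2.27 (edgeR BH-adjusted p of 0.0649 to 0.14) and those of miR-154a between 2.41 and 2.67 (edgeR BH-adjusted p of 0.0649 to 0.14). Preadipocyte replicate 3 also had the lowest share of reads outside annotated small RNAs (exons, introns, repeats and intergenic sequence) and the highest miR-126 level. With that share as a covariate, 4 members were called higher and their median was 1.18, beside 17 of 414 miRNAs called higher (4.11%) and a median of 0.08 over all. The part of the miR-126 level was not tested.

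Scaling changed the number of calls. The median over all tested miRNAs was -0.02 with TMM factors, -0.05 with median-of-ratios factors, -0.31 with upper-quartile factors and 0.62 with library totals alone. The members' medians under the same settings were 1.40, 1.38, 1.13 and 2.10. The number of members called higher was 3, 3, 3 and 12, beside 3.86% of all miRNAs called higher with TMM and 21.3% with totals. DESeq2 on the same rows called 7 members higher and 0 lower, beside 12.1% of all miRNAs called higher.

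Along the domain, positive estimates were found from the first family gene to the last. In gene order the tested members started with miR-323 and miR-494, and ended with miR-369-3p, miR-410 and miR-656, the last ones before MEG9. Neighbouring genes could differ in size of estimate, such as miR-154a (2.60) beside miR-154b (0.90), or miR-410 (1.99) a few genes past miR-409b (0.66). Of the other miRNAs listed for the domain, 27 of 36 rows were tested, 4 of these (14.8%) rose and 0 fell in edgeR's test (13 had an unadjusted p below 0.05, beside 141 of all 414). Both miR-345 rows are among the 27, although their gene precedes DLK1. Of the 25 tested rows that lie between DLK1 and DIO3, 4 (16%) rose, 0 fell and 23 had positive estimates, with a median of 1.03. Over all 414 tested miRNAs, edgeR called 3.86% higher and 2.42% lower, and 50% of the estimates were positive. DESeq2 called 10 of the 27 higher, beside 12.1% of all tested miRNAs. In edgeR's test the median log2 difference of the 27 was 1.03, with 25 of 27 positive, beside a median of -0.02 over all. The most abundant of them, miR-411a and miR-127, with means of 1533 and 1300 CPM in adipocytes, against 750 and 782 CPM in preadipocytes, did not pass. No test between the family and these other miRNAs was made.

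**Figure D5:**
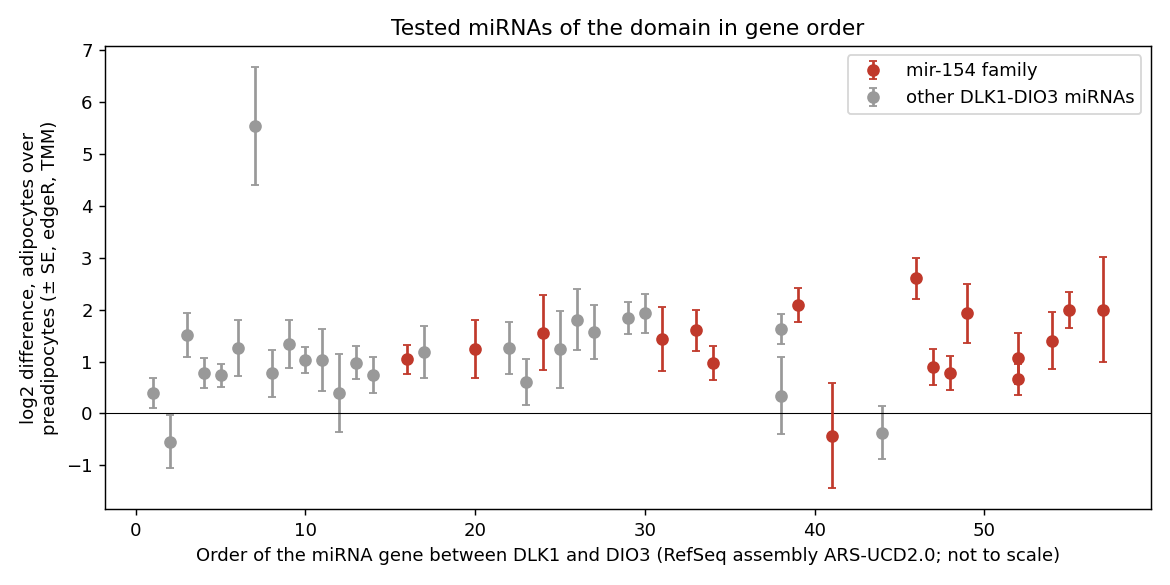
The log2 difference of adipocytes over preadipocytes (± SE, edgeR with TMM factors) for the tested miRNAs of the domain, in the order of their genes between DLK1 and DIO3 in the RefSeq table (positions not to scale). The mir-154 family (red) lies among the other miRNAs of the domain (grey), with miR-382 as its one negative estimate.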

How the data were processed

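Small RNA of 18 to 30 nt was sequenced, per the labels' protocols. The submitters' processing notes name Bowtie2. No version, genome build, miRNA release or handling of multiply matching reads is given in the sources used here. Per the file headers, each of 2213 rows of the deposited table has counts and TPM values for the 6 libraries. The counts are the authors' whole, unnormalized reads. In the deposited TPM columns every count is multiplied by the same library-wide factor, so that no length enters, and a 0 appears as 0.001.

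Counts of the 771 known and 108 predicted miRNAs were tested with edgeR 4.0.16 in R 4.3.3 (TMM, filterByExpr, glmQLFit, glmQLFTest; a two-sided test of group with no covariate), followed by Benjamini-Hochberg adjustment over all tested rows and a threshold of 0.05. Each SE is the log2 difference divided by the square root of the test's F. Rows of other RNA classes and the 4 genome-feature rows (shares given in the report) stayed out of the miRNA library sizes. Replicate libraries differed by far more than sampling noise (chi-square per degree of freedom of 930 to 1680). Alternatives used limma 3.58.1 on log2(TPM + 1) and DESeq2 1.42.0. Tables and plots were made in Python 3.11.15 with pandas 2.3.3, numpy 2.4.6 and matplotlib 3.10.9.

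Every family row is accounted for. Full values are given for members past the threshold, the 5 most abundant and the one with the lowest estimate, and further names were picked with the values in view. The rule for members reads no measured value, but the family was taken up, and the lists written, with earlier results of these data known.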

Additional observations from a re-analysis of the deposited data

How the results depend on the processing

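The count of members past the threshold (3 of 17 in edgeR's test) was 12 with library totals alone, 7 with DESeq2, 16 with limma on the deposited TPM, 5 with known miRNAs alone and 1 of 13 with lettered sister rows summed (an alternative added after seeing the data). It was 0 to 11 when single libraries were left out. The count for other DLK1-DIO3 miRNAs (4 of 27) was 16, 10 and 20 with library totals, DESeq2 and limma, and 0 to 15 without single libraries. All these calls were higher in adipocytes. Of all tested miRNAs, 3.86% were called higher in edgeR's test, 21.3% with totals and 12.1% with DESeq2. The share was 26.6% with limma, 7.4% with known miRNAs alone and 0.214% to 13.8% without single libraries. With lettered sisters summed, 13 of 354 miRNAs were called higher. The number tested was 414 in edgeR's test, and 213 among miRNAs averaging 10 CPM or more. It was 365 with known miRNAs alone and 439 to 468 without single libraries. Over all miRNAs the count of 26 became 49 with upper-quartile factors (15 higher, 34 lower, against 16 and 10), 97 with totals (88 and 9), 45 among miRNAs averaging 10 CPM or more (20 and 25), 97 with DESeq2 (50 and 47), 122 with limma (110 and 12), 59 with known miRNAs alone (27 and 32) and 1 to 148 without single libraries. The members' median of 1.40 was 2.10 with totals and 1.14 to 2.04 without single libraries. The log2 ratio of the family's read share (1.79) was 1.19 without miR-21-5p reads, 0.24 relative to the other listed domain miRNAs, 0.20 relative to those between DLK1 and DIO3 alone (both added after seeing the data) and 1.66 to 1.88 without single libraries. Only the estimate of bta-miR-382 reversed in any alternative run, to 0.13 with totals, 0.18 with limma, 0.18 with the replicate block, 0.06 without adipocyte replicate 1 and 1.01 without preadipocyte replicate 1, with a range of -0.99 to 1.01 over the fits without single libraries. The causes were not tested.

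Same-numbered libraries did not deviate together (correlations of 0.04, -0.31 and 0.02 over 414 miRNAs, and no library correlated best with its own number). With 3 libraries per group, each taken against its group mean, such correlations cannot settle whether the numbers mark pairs. The main test did not take the numbers as pairs. With the replicate block, edgeR called 1 miRNA in all, 0 members (9 with an unadjusted p below 0.05) and 0 other domain miRNAs (13 unadjusted), beside 111 of 414 miRNAs with an unadjusted p below 0.05, and the members' median was 1.66. Summing rows by the similarity of mature sequences was not run, since no mature sequences were used here, and the arm test was not run because no member hairpin had both arms at a mean of 10 counts. Depth limits what could be detected for the rarest rows, such as miR-539, miR-655 and miR-369-5p, with at most 15 reads in any library.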

Other observations

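A separate Rfam row for the mir-154 precursor held 0 reads in the 3 adipocyte libraries, and 0, 0 and 1 read in preadipocyte replicates 1, 2 and 3. The share of miR-409b in the family's reads was lower in each adipocyte library (27.6%, 23.7% and 27.5%) than in each preadipocyte library (38.3%, 40.2% and 34.2%), a ratio that does not depend on scaling and was given no test.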
